A study of Homo sapiens with 14 samples.

Results

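The genes described here are 9 members of the YAP pathway: the secreted matricellular proteins CCN1 and CCN2, the nuclear ankyrin repeat protein ANKRD1, the pathway regulators AMOTL2, AJUBA and LATS2, and the transcriptional machinery YAP1, WWTR1 (which encodes TAZ) and TEAD1. They are 9 of 60876 genes that the transcripts in the files map to, and each had enough reads in the 14 libraries to be among the 15426 genes tested. The set was chosen by name, and it was built around CCN1 because CCN1 was known from these libraries to be low after CX-5461 at the 10 min label. Every value that uses those CX-5461 10 min libraries is therefore given as a description with no p-value, and counts of genes past the rule there stand only beside the share of all genes, with nothing read from them. MDA-MB-231, an established mesenchymal-like line from a triple-negative breast cancer, was treated with the ribosome biogenesis inhibitor RBI2 or with CX-5461, an inhibitor of RNA polymerase I that is in clinical trials, and polyadenylated RNA was sequenced from whole cultures. The 7 groups were a control, RBI2 labelled 10, 30 and 120 min, and CX-5461 labelled 10, 30 and 120 min, all of this line, with 5 µM of compound and 2 libraries per group. The methods of the study call the control untreated and its results refer to DMSO, so the vehicle of these control libraries is not settled here. Within each compound the deposited data labelled 10, 30 and 120 min are named with the numbers 2, 10 and 30, whose unit is not given and need not be the same for all 3, so both the true times and the order of the groups in time are uncertain. Each time given here is that of the label.

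YAP and TAZ are transcriptional coactivators without a DNA-binding domain of their own. They reach DNA through the TEAD factors. Of the Hippo kinases, STK3 and STK4 activate LATS1 and LATS2, which phosphorylate YAP and TAZ and keep them out of the nucleus. CCN1, CCN2 and ANKRD1 are the targets most often measured as a readout of YAP activity, and they are abundant in many breast cancer lines with active YAP. AMOTL2 binds YAP and holds it at junctions and in the cytoplasm, LATS2 phosphorylates it, and both are themselves transcribed by YAP and TEAD, which closes a negative feedback loop. AJUBA, a LIM-domain scaffold, binds LATS kinases and restrains them.

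The TEAD factors recognise the core GGAATG, so the 250 bases before the annotated start of each gene with a RefSeq window were searched for it on both strands. RefSeq windows (GRCh38.p14) were found for 7 of the 9 genes, 10 windows in all, and 5 of the 7 genes held at least 1 match. CCN1 and TEAD1 had no window, so neither was searched for any motif. The 3 windows below belong to the target genes with the highest match count or the largest change with RBI2. Capitals mark GGAATG or its reverse complement CATTCC, and each run is written 5′ to 3′ on the strand of the gene. CCN2 lies at chr6:131951373-131951622 (minus strand), ANKRD1 at chr10:90921088-90921337 (minus strand) and the window at the start of the leading AMOTL2 transcript at chr3:134374448-134374697 (minus strand).
CCN2: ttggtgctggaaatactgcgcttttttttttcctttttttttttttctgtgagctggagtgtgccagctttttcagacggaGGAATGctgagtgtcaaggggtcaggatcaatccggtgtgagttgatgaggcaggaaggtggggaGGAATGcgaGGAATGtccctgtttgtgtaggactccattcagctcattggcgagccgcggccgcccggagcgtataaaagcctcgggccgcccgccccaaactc
ANKRD1: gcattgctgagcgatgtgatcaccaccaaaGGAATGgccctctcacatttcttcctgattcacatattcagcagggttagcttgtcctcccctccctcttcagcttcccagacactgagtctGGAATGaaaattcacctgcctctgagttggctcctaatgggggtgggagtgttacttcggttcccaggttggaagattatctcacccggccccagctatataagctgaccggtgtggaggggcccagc
AMOTL2: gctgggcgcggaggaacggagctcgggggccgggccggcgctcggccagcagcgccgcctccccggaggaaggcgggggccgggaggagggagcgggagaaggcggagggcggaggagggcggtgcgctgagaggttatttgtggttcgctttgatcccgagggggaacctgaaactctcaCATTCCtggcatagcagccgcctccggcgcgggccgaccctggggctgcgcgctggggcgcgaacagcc

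CCN2 held 3 copies of the core, the nearest beginning at position -95 from the start, and ANKRD1 held 2, beginning at positions -220 and -128 from it. Of 35116 RefSeq promoter windows of this length, 11.9% had at least 1 copy, 0.94% at least 2 and 0.0826% at least 3. AMOTL2 had 1 copy on the opposite strand, at positions -69 to -64, in the window shown and none in its other window. YAP1 had 1 copy beginning at position -162, and AJUBA had 1 in a window 5709 bases from the start of its leading transcript. The windows of LATS2 and WWTR1 had none. The AP-1 motif was searched loosely as TGANTCA, with any base at N, a pattern in 6.57% of all windows. Among the 7 genes searched it was found only in ANKRD1, at positions -195 to -189, where it reads TGATTCA. A stricter pattern with only C or G at N was not searched. CCN2 had a TATAAA box beginning at position -32, a motif in 10.7% of all windows. The CArG box bound by SRF, in 1.16% of all windows, matched none of the 10. A match is a description of these letters and does not show that a factor is bound.

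The genes lie (GRCh38) at chr1:85580761-85584589 on the plus strand for CCN1, chr6:131948176-131951372 on the minus strand for CCN2 and chr10:90912096-90921087 on the minus strand for ANKRD1. AMOTL2 is at chr3:134355347-134375479, AJUBA at chr14:22971177-22982551 and LATS2 at chr13:20973036-21061586, all on the minus strand. YAP1 is at chr11:102110447-102233424 (plus), WWTR1 at chr3:149517235-149736714 (minus) and TEAD1 at chr11:12674421-12944737 (plus). AMOTL2, AJUBA, LATS2, WWTR1 and TEAD1 each overlap 1 further annotated gene on the same strand, so a part of their reads could be divided with it.

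Between 14112299 and 24849354 reads per library were assigned to transcripts (median 16305236). Control replicate 2 stood apart: 20.6% of its reads were mitochondrial, against 8.14 to 11.3% in the other 13 libraries, and 1412 genes were over 2-fold apart between the control replicates, against 461 to 629 in the treated pairs. All comparisons with the control share this pair, and nothing in the labels says that replicates came from separate cultures, so p-values measure the spread between these libraries, which may be technical. The line showed its markers: VIM was at 2084 to 2694 TPM (the share of all transcripts, corrected for their length), CD44 at 472 to 750.3 and AXL at 239 to 392, while PGR was listed at 0 and ESR1 and CDH1 did not exceed 0.285 TPM. EPCAM (11.4 to 22.4 TPM) and ERBB2 (14.8 to 22.9 TPM) were present at low levels. The summed level of 4 leukocyte markers was at most 0.452 TPM and that of 3 endothelial markers at most 0.22 TPM, and 5 fibroblast markers summed to 1.63 to 5.07 TPM.

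CCN1, CCN2 and ANKRD1 were far more abundant than the other members and were among the most abundant transcripts of these cells. Over all libraries their mean levels per transcript length were 454, 409 and 444 TPM, at the 98.1, 97.9 and 98 percentile of the tested genes. In the control the order of the TPM levels was CCN1 (417 ± 139 SD, n = 2), CCN2 (395 ± 48.9), ANKRD1 (388 ± 125), AMOTL2 (40.6 ± 12.5), YAP1 (39.7 ± 7.98), TEAD1 (39.5 ± 1.65), AJUBA (33.9 ± 18.3), WWTR1 (14.1 ± 0.864) and LATS2 (8.19 ± 2.56). The first 3 did not differ beyond their spread, and neither did the next 4. WWTR1 (14.7 and 13.4 TPM) was above LATS2 (10 and 6.38 TPM) in both control libraries. Of the other CCN genes, CCN3 was at 1.76 to 2.93 TPM, CCN5 had at most 9 reads in a library and CCN4 and CCN6 had none, so CCN1, CCN2 and, at a low level, CCN3 were the CCN genes tested.

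**Figure D1:**
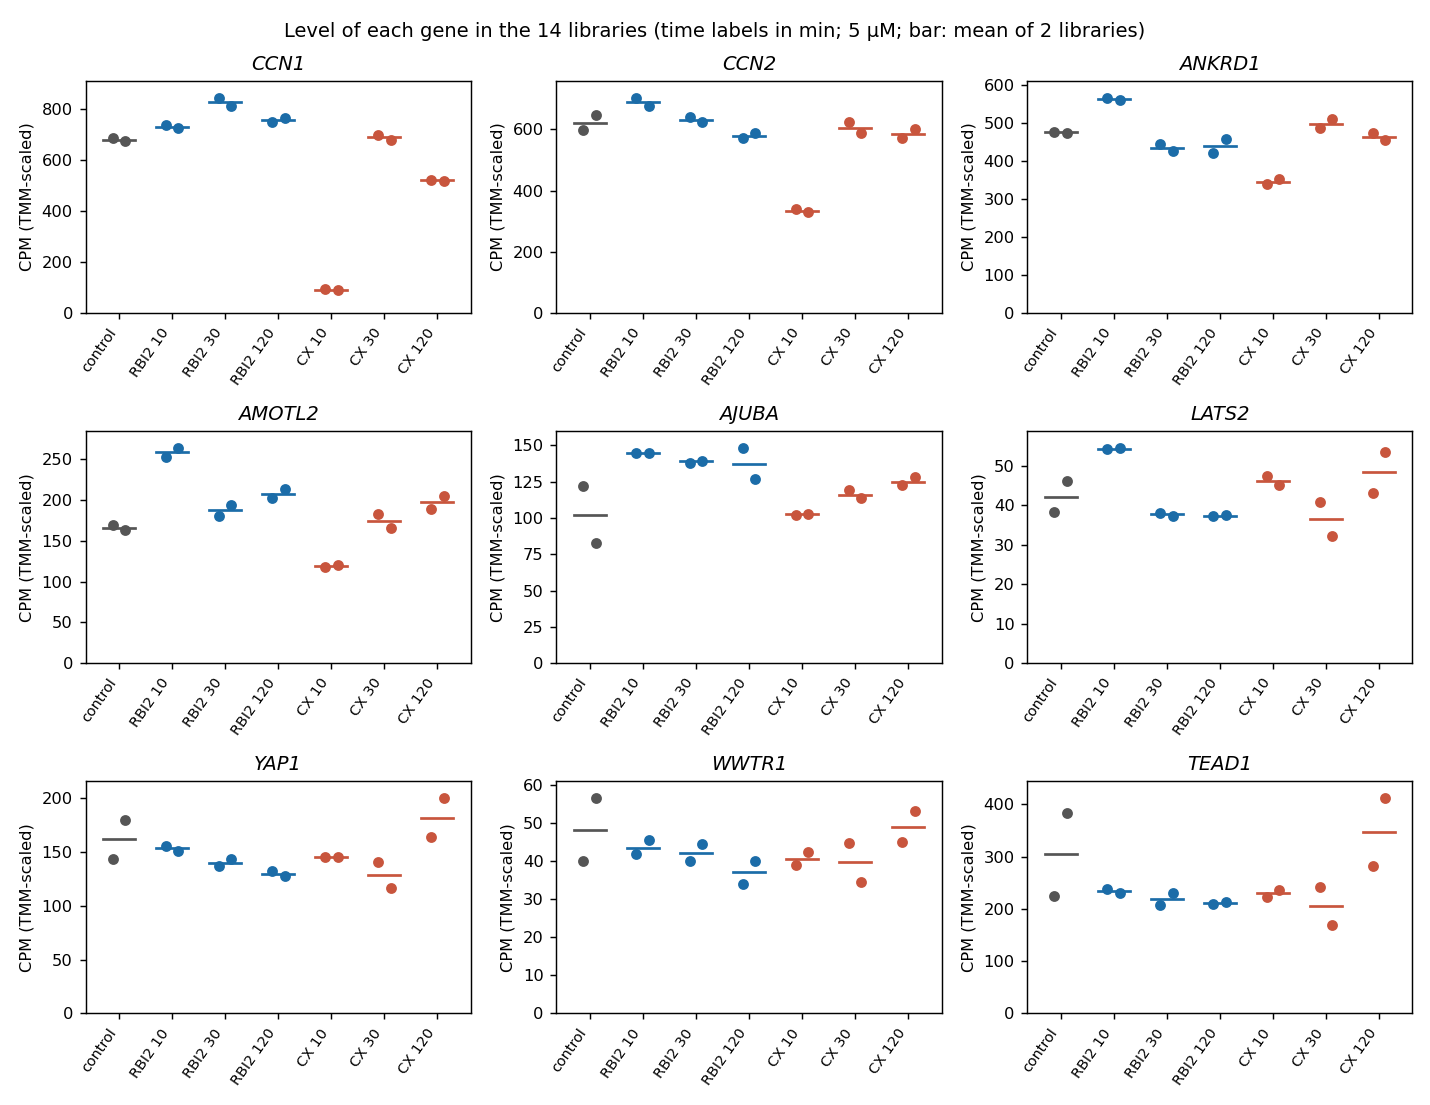
Level of each of the 9 genes in every library, in CPM on a linear axis from 0, with points for libraries, bars for the mean of 2 libraries and the compound and time label in min below. CCN1 sits near 92.3 CPM after CX-5461 at the 10 min label and between 518 and 840.4 CPM in every other group, while the 2 control libraries of AJUBA and TEAD1 lie far apart.

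A gene was counted as changed when edgeR's quasi-likelihood test gave an adjusted p (Benjamini-Hochberg over all 15426 genes) under 0.05 and the log2 fold change was 1 or more in size. In the tested comparisons none of the 9 genes passed this rule, with edgeR or with DESeq2. With RBI2 against the control, 0 of 9 members passed at 10 min, where 0.0778% of all tested genes did, 0 of 9 at 30 min (0.0389% of all) and 0 of 9 at 120 min (1.82% of all). With CX-5461, 0 of 9 passed at 30 min (0% of all) and 0 of 9 at 120 min (0.0454% of all). Directly between the compounds, 0 of 9 passed at 30 min (0.013% of all) and 0 of 9 at 120 min (1.67% of all). An unadjusted p under 0.05, with no limit on the fold, was given with RBI2 to 5 members at 10 min (12.9% of all tested genes), 3 at 30 min (25.8% of all) and 4 at 120 min (35.9% of all). With CX-5461 it was given to 2 at 30 min (22.9% of all) and 2 at 120 min (12.4% of all). Between the compounds it was given to 2 at 30 min (7.79% of all) and 5 at 120 min (31.6% of all). In the comparisons that chose the members, 1 of 9 (CCN1) was past the rule with CX-5461 at 10 min (1.64% of all), and 3 of 9 (CCN1, CCN2 and AMOTL2) with RBI2 against CX-5461 at 10 min (1.04% of all). Nothing is read from those 2 counts. With CX-5461 at 10 min the members nearest the limit on the fold were CCN1 past it (log2 change -2.88) and CCN2 short of it (-0.90).

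CCN1, which codes for a secreted integrin ligand of the immediate-early class, had the lowest level after CX-5461 at the 10 min label and, in CPM, a reduced one at 120 min, and was not below the control after RBI2. Levels are given in CPM, the share of a gene in the reads of a library scaled by TMM. The control libraries had 685 and 673 CPM. After CX-5461 the 10 min libraries had 94 and 90.6 CPM (13.6% of the control mean), the 30 min libraries 698 and 679 and the 120 min libraries 520.0 and 518. After RBI2 the values were 735 and 723 at 10 min, 840.4 and 811 at 30 min, then 746 and 764 at 120 min. In CPM the CX-5461 10 min and 120 min pairs lay below both control libraries, the CX-5461 30 min pair overlapped them and all 6 RBI2 libraries lay above them. In TPM the controls were at 516 and 319, the CX-5461 120 min pair lay between them at 381 and 379, and the 10 min pair lay below both at 70.7 and 66.1. Replicates of each group were close, with an SD of at most 20.8 CPM. In RNA of whole cultures, fewer cells with the transcript and less of it per cell cannot be told apart.

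The log2 change of CCN1 with CX-5461 was -2.88 (SE 0.06) at 10 min, a 7.35-fold difference given without a test, then 0.02 (SE 0.06, adjusted p = 0.838) at 30 min and -0.39 (SE 0.06, adjusted p = 0.0432) at 120 min. The value at 120 min passed the adjusted p, as 0.0778% of all tested genes did, and was within the limit on the fold. Its call was kept in 2 of 14 fits that each left out 1 library, those without control replicate 1 (0.00126) and without control replicate 2 (0.0142). In the other 12 the adjusted p was 0.0677 to 0.514, the highest without CX-5461 120 min replicate 2, while the log2 change stayed between -0.44 and -0.38 in all 14 except -0.47 without control replicate 2. It was -0.71 (adjusted p = 0.514) when only protein-coding transcripts were summed and -0.42 (adjusted p = 0.993) when only the 4 libraries of the comparison were fitted, and over 24 settings the call was kept in 7. With RBI2 the changes of CCN1 were 0.10 (SE 0.06, adjusted p = 0.45), 0.28 (SE 0.06, adjusted p = 0.0918) and 0.15 (SE 0.06, adjusted p = 0.0812) at 10, 30 and 120 min. The values at 30 and 120 min were under 0.05 without control replicate 1 (0.00246 and 0.0352) and with DESeq2 (2.2e-05 and 0.0163). Their direction turned when only protein-coding transcripts were summed, to -0.42, -0.26 and -0.19 at 10, 30 and 120 min.

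Set directly against each other at 5 µM, RBI2 and CX-5461 left CCN1 at different levels at 120 min. The RBI2 libraries (746 and 764 CPM) were both above the CX-5461 libraries (520.0 and 518 CPM), by 0.54 on the log2 scale (SE 0.06, 95% interval 0.42 to 0.67, adjusted p = 0.00352). Without a limit on the fold, 16.1% of all tested genes were past the adjusted p in this comparison. The call held without each of the 14 libraries, at an adjusted p of at most 0.0415. It was lost when only protein-coding transcripts were summed (log2 0.52, adjusted p = 0.33). At 30 min the difference was 0.26 (95% interval 0.14 to 0.39, adjusted p = 0.361 with edgeR and 0.00452 with DESeq2), and at 10 min, without a test, it was 2.98, or 7.89-fold.

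**Figure D2:**
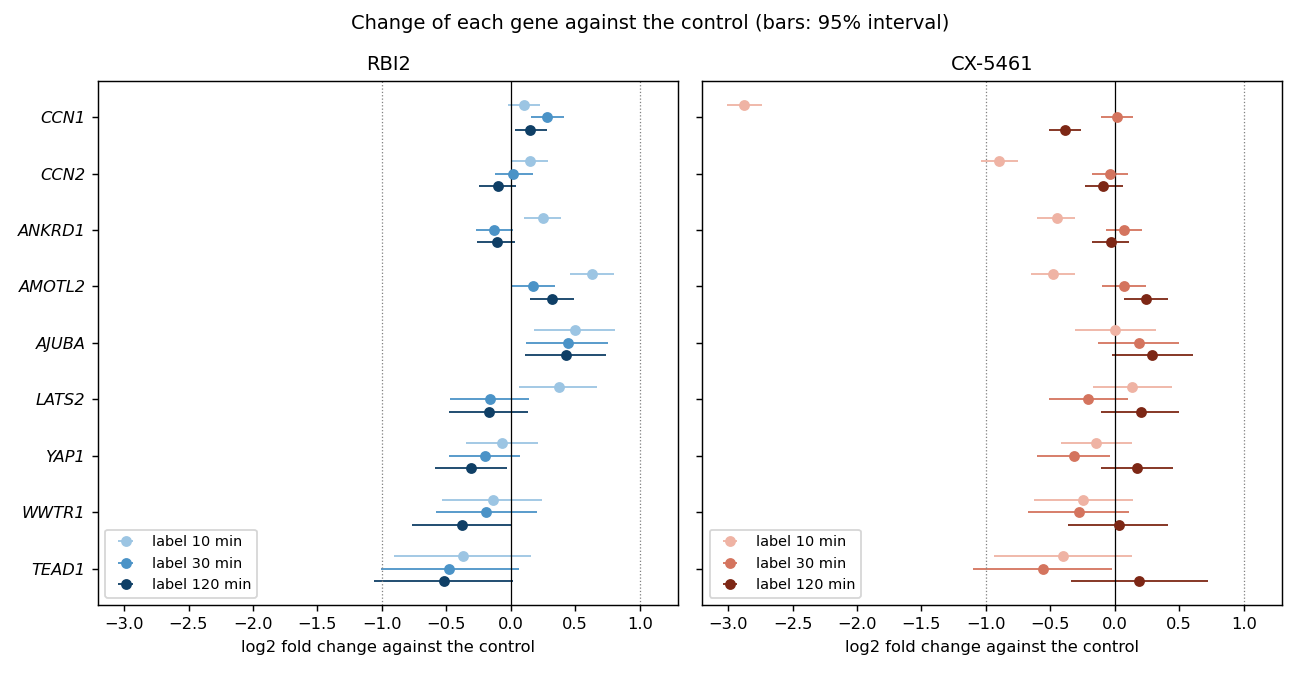
Log2 fold change of each gene against the control, RBI2 on the left and CX-5461 on the right, with points shaded by time label, bars for the 95% interval and dotted lines at the limits of -1 and 1. CCN1 after CX-5461 at the 10 min label is the only point past a limit, at -2.88, and that column of points is a description because it chose the genes.

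CCN1 reads were divided by the authors' quantification mainly between the protein-coding CCN1-201 (52% over all libraries) and CCN1-205, annotated for nonsense-mediated decay (41.8%). CCN1-205 received 0% in control replicate 2 and 35.7 to 50.3% in each other library, so the split between these transcripts is uncertain and gene sums were used. The 2 transcripts annotated with a retained intron held 3.57% and 2.1% of the reads. Their joint share was 8.59% (947 of 11020 reads, 95% Wilson interval 8.08 to 9.13) and 3.99% (336 of 8427 reads, 3.59 to 4.43) in the control libraries. It was 1.13% (20 of 1745 reads, 0.743 to 1.76) and 2.73% (45 of 1630 reads, 2.07 to 3.67) after CX-5461 at 10 min and 2.2% (280 of 12761 reads) and 1.69% (151 of 8939 reads) at 120 min. The CX-5461 30 min libraries, at 4.8% and 9.11%, were as wide apart as the controls, and the RBI2 libraries ranged from 6.17% to 7.99%. The 4 CX-5461 libraries at 10 and 120 min were thus below every other library in this share. No test was run on it, and the intervals cover counting error only, since amplified reads are not independent molecules.

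**Figure D3:**
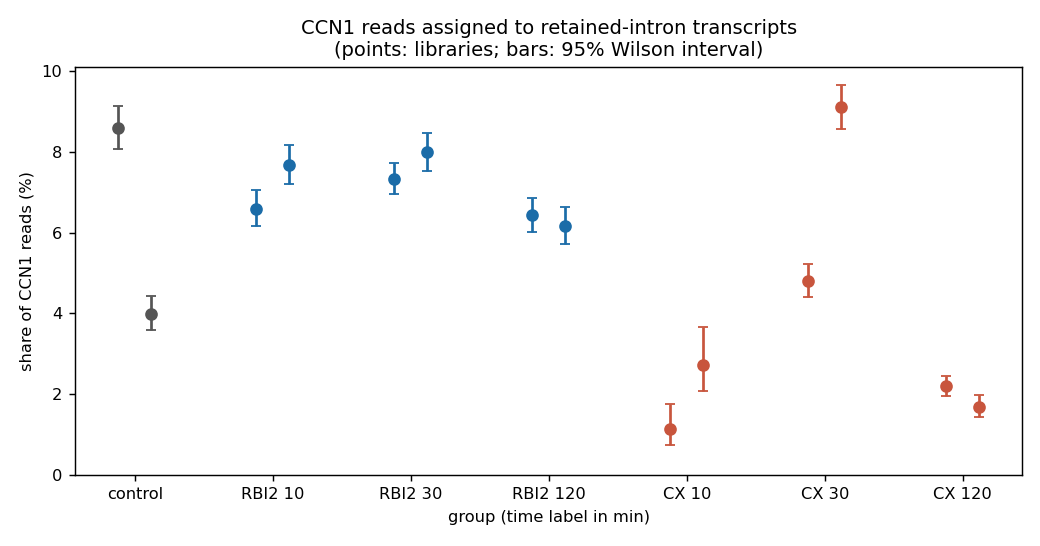
Share of CCN1 reads assigned to transcripts with a retained intron, in percent, in each library, with points for libraries and bars for the 95% Wilson interval of counting error. The CX-5461 libraries at the 10 and 120 min labels lie between 1.13% and 2.73%, all other libraries between 3.99% and 9.11%.

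CCN2, the paralog of CCN1 also known as connective tissue growth factor, followed CCN1 after CX-5461 at the 10 min label, to a smaller extent, and stood near the control in the other groups. The control libraries had 598 and 647 CPM. After CX-5461 they had 339 and 329 at 10 min (53.7% of the control mean), 623 and 587 at 30 min, then 573 and 600.0 at 120 min. After RBI2 they had 702 and 676 at 10 min, 639.5 and 623 at 30 min, then 572 and 587 at 120 min. The CX-5461 10 min pair was far below all other libraries, and the RBI2 10 min pair was above them all.

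The log2 change of CCN2 with CX-5461 was -0.90 (SE 0.07) at 10 min, without a test, -0.04 (adjusted p = 0.71) at 30 min and -0.09 (adjusted p = 0.596) at 120 min. With RBI2 it was 0.15 (SE 0.07, adjusted p = 0.383), 0.02 and -0.10 at 10, 30 and 120 min. At 120 min, where CCN1 differed between the compounds, the difference of CCN2 was -0.02 (95% interval -0.16 to 0.13, adjusted p = 0.9), which leaves room for at most a small difference in either direction. Whether CCN1 and CCN2 differed from each other in that contrast was not tested.

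ANKRD1, a titin-binding repeat protein of muscle that is also a transcriptional cofactor and a direct YAP target in epithelial cells, was also low after CX-5461 at 10 min in CPM. Its control libraries were almost equal in CPM, at 476 and 474, and apart in TPM, at 476 and 299, with the CX-5461 10 min pair between them at 330.2 and 347 TPM. After CX-5461 it had 339 and 353 CPM at 10 min (73% of the control mean), 487 and 509.6 at 30 min, then 473 and 454 at 120 min. After RBI2 it had 565 and 561 CPM at 10 min, 445 and 425 at 30 min, then 420.4 and 457 at 120 min. The RBI2 10 min pair was the highest of all groups and did not overlap any other library.

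Against the control the log2 change of ANKRD1 was -0.45 (SE 0.07) with CX-5461 at 10 min, without a test, and 0.07 and -0.03 at 30 and 120 min. With RBI2 it was 0.25 (SE 0.07, adjusted p = 0.198) at 10 min, -0.13 (adjusted p = 0.24) at 30 min and -0.11 (adjusted p = 0.238) at 120 min. In TPM the mean of ANKRD1 was 388 in the control and higher after RBI2 at 30 min (452) and 120 min (436). At RBI2 10 min the adjusted p of ANKRD1 was 0.0343 with DESeq2. Its log2 change there was 0.25 without control replicate 1 and 0.22 without control replicate 2. Between the compounds the difference was -0.20 at 30 min (95% interval -0.34 to -0.05, adjusted p = 0.476) and -0.08 at 120 min (adjusted p = 0.46), and 0.70 at 10 min without a test.

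AMOTL2, the angiomotin-like feedback inhibitor of YAP, had the largest difference from the control among the members with RBI2 at 10 min and passed the adjusted p there. It had 169.6 and 163 CPM in the control, 253 and 263 after RBI2 at 10 min, 180.1 and 194 at 30 min, then 202 and 213 at 120 min. After CX-5461 it had 118 and 120.0 CPM at 10 min, 183 and 166 at 30 min, then 189 and 205 at 120 min. In CPM all 6 RBI2 libraries were above both controls, and the CX-5461 10 min pair was below every other library. In TPM the controls were at 49.4 and 31.8, and the CX-5461 10 min pair lay between them at 34.1 and 34.6.

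The log2 change of AMOTL2 with RBI2 was 0.63 (SE 0.08, adjusted p = 0.00858) at 10 min, a 1.55-fold rise, when 0.201% of all tested genes were past the adjusted p without a limit on the fold. It was 0.17 (SE 0.08, adjusted p = 0.192) at 30 min and 0.32 (SE 0.08, adjusted p = 0.0231) at 120 min, when 18% of all tested genes were past the adjusted p. The call at 10 min was lost without RBI2 10 min replicate 1 (0.07) or 2 (0.118), when only the 4 libraries of the comparison were fitted (0.888), with a transcript length offset (0.0679) and with a replicate block and GC correction together (0.0525), with a log2 change of 0.52 to 0.77 over all 24 settings. The call at 120 min was lost without control replicate 2 (0.0567) and without RBI2 120 min replicate 1 (0.0771) or 2 (0.1), and after a correction for GC content the change was 0.06 (adjusted p = 0.715). With a transcript length offset its adjusted p was 0.102. AMOTL2 is the most GC-rich of the 9 genes, at 56.3% of bases.

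With CX-5461 the log2 change of AMOTL2 was -0.48 (SE 0.08) at 10 min, without a test, 0.07 (adjusted p = 0.569) at 30 min and 0.24 (SE 0.08, adjusted p = 0.298) at 120 min, the last at 0.0414 without control replicate 1. The difference between RBI2 and CX-5461 was 1.12 at 10 min, without a test, 0.10 (adjusted p = 0.881) at 30 min and 0.07 (95% interval -0.09 to 0.24, adjusted p = 0.561) at 120 min. The compounds were thus far apart at the 10 min label and within 0.24 of each other, by the interval, at the 120 min label, where the difference was 0.27 with protein-coding transcripts only.

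AJUBA, the LATS-binding scaffold, did not pass the test against the control, where its 2 libraries were far apart (122 and 82.7 CPM). After RBI2 it had 145 and 145 CPM at 10 min, 138 and 139 at 30 min, then 148 and 127 at 120 min. After CX-5461 it had 102 and 103 CPM at 10 min, 119 and 114 at 30 min, then 123 and 128 at 120 min. All 6 RBI2 libraries were above both controls. The log2 changes with RBI2 were 0.50 (SE 0.14, adjusted p = 0.223), 0.44 (SE 0.14, adjusted p = 0.129) and 0.43 (SE 0.14, adjusted p = 0.0597) at 10, 30 and 120 min. Without control replicate 1 they were 0.81, 0.75 and 0.73, at adjusted p of 3.2e-04, 2.5e-04 and 2.2e-04, and without control replicate 2 they were 0.23, 0.17 and 0.16, at 0.476, 0.452 and 0.248. DESeq2 gave 0.0303 at 120 min. With no filter on low counts the 3 adjusted p were 8.7e-04, 0.0022 and 0.00295. With CX-5461 the changes were 0.00 at 10 min, without a test, 0.19 (adjusted p = 0.403) and 0.29 (adjusted p = 0.428), the latter 2 at 0.0017 and 0.00122 without control replicate 1.

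LATS2, the kinase that inactivates YAP, was the least abundant member in TPM (mean of 10.8) and had 506 to 1057 reads per library. It had 38.2 and 46.2 CPM in the control, 54.2 and 54.4 after RBI2 at 10 min, 38 and 37.3 at 30 min, then 37.2 and 37.5 at 120 min. After CX-5461 it had 47.4 and 45.1 CPM at 10 min, 40.9 and 32.2 at 30 min, then 43.1 and 53.6 at 120 min. The RBI2 10 min pair was the highest of the groups, and its values, like those of the other RBI2 pairs, were almost equal. The log2 changes with RBI2 against the control were 0.37 (SE 0.14, adjusted p = 0.312), -0.16 and -0.17, and those with CX-5461 were 0.13 (no test), -0.21 (adjusted p = 0.35) and 0.20 (adjusted p = 0.566). In TPM the mean of LATS2 was 8.19 in the control and higher after RBI2 at 30 min (10.6) and 120 min (9.55) and after CX-5461 at 30 min (9.48). At 120 min LATS2 was lower with RBI2 than with CX-5461 by 0.37 (95% interval -0.67 to -0.07, adjusted p = 0.0908), and this was 0.0382 without control replicate 1.

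At the 10 min label of RBI2, CCN1, CCN2, ANKRD1, AMOTL2, AJUBA and LATS2, 6 of the 9 members, were higher in both treated libraries than in both controls, as 18.2% of all tested genes were. The median log2 change of the 9 was 0.15 at 10 min, -0.13 at 30 min and -0.11 at 120 min, beside 0.01, -0.01 and 0.01 for all tested genes. With CX-5461 it was -0.40 (chosen contrast), -0.04 and 0.17, beside -0.04, -0.05 and 0.06. These directions depended on the scale: with RBI2 the mean TPM was above that of the control for 9 of 9 members at 10 and 30 min and for 8 of 9 at 120 min. With CX-5461 the mean TPM was above the control for 5 of 9 at 10 min (chosen contrast) and for 8 of 9 at 30 and at 120 min. The share of all tested genes above the control in mean TPM was not computed, and control replicate 2 had 20.6% mitochondrial reads. Nothing about the members is read from these TPM counts. Only AMOTL2 of the 6 passed the adjusted p at 10 min of RBI2.

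In CPM all members except CCN1 had their highest mean of the RBI2 groups at the 10 min label, CCN1 had its highest at 30 min, and the RBI2 time labels were compared with each other. These comparisons, and that of CX-5461 at 30 and 120 min, were added after the values had been seen, so their p-values are no independent evidence of that pattern. None of the 9 passed the rule with its limit on the fold: 0 of 9 at 10 against 30 min (0.0583% of all), 0 of 9 at 10 against 120 min (0.694% of all), 0 of 9 at 30 against 120 min (0.013% of all) and 0 of 9 for CX-5461 at 30 against 120 min (0.013% of all). DESeq2 gave 0 as well. In the same order 4, 4, 1 and 5 members were at an unadjusted p under 0.05, as were 9.21%, 24%, 10.3% and 19.3% of all tested genes. By the adjusted p alone, 4 members were higher at 10 than at 120 min of RBI2, where 6.44% of all tested genes passed. They were ANKRD1 (0.36, SE 0.07, adjusted p = 0.0181), AMOTL2 (0.32, SE 0.08, adjusted p = 0.0395), LATS2 (0.54, SE 0.14, adjusted p = 0.045) and CCN2 (0.25, SE 0.07, adjusted p = 0.0489). In each of the 4 both 10 min libraries lay above both 120 min libraries. The 4 were picked by their calls in this same contrast, so that separation adds nothing to the calls. Its share over all tested genes was not computed.

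AMOTL2 was also higher at 10 than at 30 min of RBI2 (0.46, SE 0.08, adjusted p = 0.0498, where 0.188% of all passed), and ANKRD1 (0.37, adjusted p = 0.0689) and LATS2 (0.53, adjusted p = 0.247) did not pass. ANKRD1 was under 0.05 there without control replicate 1 (0.0156) or 2 (0.0187), and LATS2 without control replicate 2 (0.0491). CCN1 went the other way between these labels (-0.18, adjusted p = 0.348). DESeq2 gave ANKRD1 an adjusted p of 8.8e-05 between these labels. With a transcript length offset all 4 calls at 10 against 120 min (0.159 to 0.252) and that of AMOTL2 at 10 against 30 min (0.359) were lost, and with a GC correction ANKRD1 was at 0.23 (adjusted p = 0.184) for 10 against 120 min. These calls were close to the threshold: over 14 fits that each left out 1 library, ANKRD1 kept its call in 10, LATS2 in 6, AMOTL2 in 4 and CCN2 in 2 for 10 against 120 min, and AMOTL2 in 2 for 10 against 30 min. Each of the 5 lost it without either library of either group compared, with adjusted p of 0.0877 to 0.555. For ANKRD1 those 4 were the only libraries whose removal did so. LATS2, AMOTL2 and CCN2 also lost the call at 10 against 120 min without CX-5461 10 min replicate 1 or 2 or RBI2 30 min replicate 1 or 2 (0.0606 to 0.0848), AMOTL2 and CCN2 without CX-5461 120 min replicate 1 or 2 (0.0599 to 0.0666), and CCN2 without CX-5461 30 min replicate 1 or 2 (0.0536 and 0.054). At 10 against 30 min the 2 fits in which AMOTL2 passed were those without a control library. For CX-5461, CCN1 was higher at 30 than at 120 min by 0.41 (SE 0.06, adjusted p = 0.0883), at 0.0117 without control replicate 1, 0.0057 without control replicate 2, 0.0293 with a GC correction and 2.3e-14 with DESeq2. YAP1 and TEAD1 were lower at 30 than at 120 min of CX-5461 by 0.49 and 0.75, each at an adjusted p of 0.196, which was 0.0382 for both without control replicate 1 and 0.0493 for both without control replicate 2.

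YAP1, WWTR1 and TEAD1, the coactivators and their DNA-binding partner, did not pass the test against the control, and their replicates were far apart in 3 groups. YAP1 had 144 and 179.7 CPM in the control, 146 and 146 after CX-5461 at 10 min, 141 and 117 at 30 min, then 164 and 200.0 at 120 min. It had 156 and 151 CPM after RBI2 at 10 min, 137 and 144 at 30 min, then 133 and 128 at 120 min. The second replicate was high in the control and at CX-5461 120 min and low at CX-5461 30 min.

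TEAD1 repeated this pattern more widely. It had 225 and 383 CPM in the control, 223 and 236 after CX-5461 at 10 min, 242 and 169.9 at 30 min, then 282 and 411 at 120 min. After RBI2 it had 238 and 231 CPM at 10 min, 207 and 229.5 at 30 min, then 209 and 214 at 120 min. On the TPM scale the TEAD1 control libraries were 40.6 and 38.3 TPM, so the gap between them was present in CPM and absent in TPM. WWTR1 had 40 and 56.5 CPM in the control and ranged from 34 to 53.2 CPM in the treated libraries, with the same replicates high and low.

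With RBI2 the log2 changes of YAP1 were -0.07, -0.20 and -0.31 (SE 0.13, adjusted p = 0.104) at 10, 30 and 120 min, those of WWTR1 -0.14, -0.19 and -0.38 (adjusted p = 0.153) and those of TEAD1 -0.37, -0.48 and -0.52 (SE 0.24, adjusted p = 0.151). With CX-5461 those of YAP1 were -0.15 (no test), -0.32 (adjusted p = 0.213) and 0.17, those of WWTR1 -0.25 (no test), -0.28 and 0.03, and those of TEAD1 -0.40 (no test), -0.56 (adjusted p = 0.215) and 0.19. In TPM the means after RBI2 were not below the control, except that of WWTR1 at 120 min. TEAD1 had a mean of 39.5 TPM in the control, then 41.1, 40.7 and 40.9 after RBI2. YAP1 had 39.7 TPM, then 49.1, 46.8 and 41.4, and WWTR1 had 14.1 TPM, then 15.7, 16 and 13.5. The control pair decided the log2 changes. At RBI2 120 min TEAD1 was at -0.85 (adjusted p = 0.00693) without control replicate 1 and -0.11 (0.786) without control replicate 2, YAP1 at -0.46 (0.00982) and -0.16 (0.398), and WWTR1 at -0.61 (0.0114) and -0.13 (0.652). At CX-5461 30 min the same omissions gave -0.89 (0.00654) and -0.14 (0.955) for TEAD1, -0.48 (0.00999) and -0.16 (0.955) for YAP1 and -0.51 (0.0285) and -0.02 (0.992) for WWTR1. Without control replicate 1 the call was also gained by TEAD1 at RBI2 10 min (0.0265) and by TEAD1 (0.0104) and YAP1 (0.0364) at RBI2 30 min.

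Between the compounds at 120 min, a contrast without the control pair, the estimates of all 3 were lower with RBI2, and YAP1 passed the adjusted p. YAP1 differed by -0.48 (SE 0.13, 95% interval -0.76 to -0.20, adjusted p = 0.0283), TEAD1 by -0.71 (SE 0.24, 95% interval -1.24 to -0.17, adjusted p = 0.0717) and WWTR1 by -0.40 (SE 0.17, 95% interval -0.79 to -0.02, adjusted p = 0.142). In each of the 3 both RBI2 libraries were below both CX-5461 libraries, a separation whose share over all tested genes was not computed. Of all tested genes 16.1% passed the adjusted p in this contrast and 31.6% had an unadjusted p under 0.05, so nothing is read from that separation. YAP1 did not pass with protein-coding transcripts only (-0.36, adjusted p = 0.101) or with a replicate block and GC correction together (-0.31, adjusted p = 0.0613). The call of YAP1 was lost without CX-5461 120 min replicate 2 (-0.29, adjusted p = 0.228), without RBI2 120 min replicate 1 (0.125) or 2 (0.136) and without RBI2 30 min replicate 2 (0.0524). TEAD1 was under 0.05 without control replicate 1 (0.0118) or 2 (0.0135) and with DESeq2 (0.0182), and WWTR1 without control replicate 1 (0.0431). At 30 min the differences of the 3 genes were 0.08 to 0.12, at adjusted p of 0.944 to 0.993.

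Across the 14 libraries the correlations of CCN1 with other target genes changed when the CX-5461 10 min pair was left out, while those of the coactivators with TEAD1 did not. The Pearson correlation of log2 CPM was 0.97 for CCN1 and CCN2, 0.87 for CCN2 and ANKRD1, 0.84 for CCN2 and AMOTL2 and 0.72 for AMOTL2 and AJUBA. Without the 2 CX-5461 10 min libraries (n = 12) these were 0.36, 0.64, 0.50 and 0.67. Without them CCN1 and ANKRD1 went from 0.78 to -0.08 and CCN1 and AMOTL2 from 0.79 to 0.11, so the ties of CCN1 to these 3 genes rested on that group. CCN2 and AJUBA went from 0.46 to 0.08, and ANKRD1 and AJUBA from 0.37 to 0.01. YAP1 and TEAD1 correlated at 0.95 over 14 libraries and 0.96 over 12, WWTR1 and TEAD1 at 0.90 and 0.90, and YAP1 and WWTR1 at 0.86 and 0.87. LATS2 went with YAP1 (0.76 and 0.78) more than with CCN1 (-0.27 and -0.37). Its correlations were -0.04 and 0.63 with CCN2, 0.14 and 0.52 with ANKRD1, 0.22 and 0.65 with AMOTL2 and -0.03 and 0.08 with AJUBA. Libraries of a group share their treatment and some share a departure from their replicate, so these values describe this set of libraries and carry no test.

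**Figure D4:**
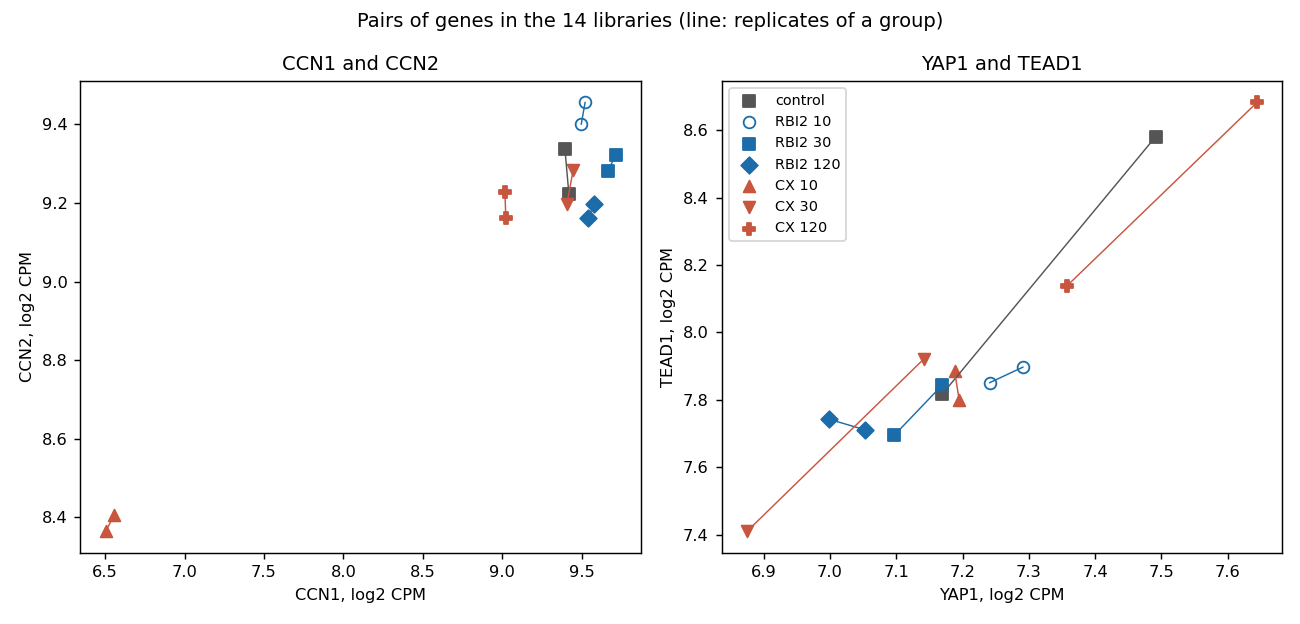
Log2 CPM of CCN2 against CCN1 (left) and of TEAD1 against YAP1 (right) in the 14 libraries, with a symbol per group and a line joining the replicates of a group. The left panel is spread by the CX-5461 10 min pair, while in the right panel replicates of the control, CX-5461 30 min and CX-5461 120 min lie along the same slope as the groups.

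Among the genes whose log2 CPM was most like that of CCN1 over the 14 libraries, of 10570 genes with a mean of at least 5 CPM, were TAF1D (r = 0.977), MYC (0.977), ARF6 (0.973) and JUN (0.973). These 4 had their lowest group mean after CX-5461 at 10 min. MYC, the growth-promoting transcription factor, went from a mean of 185 CPM in the control to 33.6, and JUN, a component of AP-1, from 107 to 44. TAF1D, a subunit of the RNA polymerase I selectivity factor, went from 247 to 121 and ARF6, a small GTPase of membrane traffic, from 200.3 to 137. Without the 2 CX-5461 10 min libraries the correlations of these 4 were 0.46 for MYC to 0.81 for JUN. The likeness was ranked with the libraries that chose CCN1, so it is a description.

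The wider pathway was read from lists of known YAP and Hippo genes. Of 22 widely used YAP/TAZ target genes, all 22 were tested, and with RBI2 none passed the rule at 10, 30 or 120 min, where 0.0778%, 0.0389% and 1.82% of all tested genes did, with median log2 changes of 0.01, 0.01 and -0.02. With CX-5461 none passed at 30 min (0% of all) or 120 min (0.0454% of all), with medians of -0.09 and -0.03. At such shares of all genes, nothing about the list is read from a count of 0. At CX-5461 10 min 2 of 22 were lower, CCN1 and GADD45A (-1.20), a stress-induced growth arrest gene, and 20 were not, with a median of -0.27 beside -0.04 for all genes and 1.64% of all past the rule. Between the compounds at 10 min 4 of 22 were past the rule (1.04% of all), with higher values for RBI2: CCN1, CCN2, AMOTL2 and GADD45A (1.40). Of these 4, 3 are members, the libraries compared chose the set, and nothing is read from either count. By adjusted p alone at 120 min, 4 of 22 were higher and 2 lower with RBI2 than in the control, beside 18% of all tested genes. Directly between the compounds at 120 min, 3 of 22 were higher with RBI2 and 2 lower, beside 16.1% of all, with 10 of 22 estimates above 0 and a median of -0.03. The 3 were CCN1, GADD45A (0.64, SE 0.08, adjusted p = 0.0067) and the phosphatase PTPN14 (0.76, adjusted p = 0.00692), and the 2 were F3, which codes for tissue factor (-0.26, adjusted p = 0.0371), and the ectonucleotidase NT5E (-0.53, adjusted p = 0.0254).

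Of 22 Hippo kinases and regulators 21 were tested and none passed the rule in a tested comparison, where 0 to 1.82% of all tested genes did. The kinases STK3 and STK4 were at 16.7 to 27 and 26.7 to 45.1 TPM, LATS1 at 3.92 to 9.11 TPM and NF2, the upstream tumor suppressor, at 1.37 to 4.87 TPM. AMOT, the founding angiomotin, had at most 3 reads in a library, so AMOTL2 and AMOTL1 (11.7 to 28.8 TPM) were the family members present. By adjusted p alone, 6 of the 21 were higher and 3 lower with RBI2 at 120 min than in the control, beside 18% of all tested genes. Among the 6 were PTPN14 (0.92, adjusted p = 0.00425), AMOTL1 (0.75, adjusted p = 0.0202) and NF2 (0.68, adjusted p = 0.0136). The 3 were STK3 (-0.60, adjusted p = 0.0271), FRMD6 (-0.47, adjusted p = 0.0412) and MOB1A (-0.33, adjusted p = 0.0437). Between the compounds at 120 min 4 were higher and 3 lower with RBI2, beside 16.1% of all. By time label, the list had median log2 changes of 0.02, -0.07 and 0.05 after RBI2 and -0.26, -0.19 and 0.15 after CX-5461. Of 10 TEAD factors and cofactors 8 were tested, with none past the rule against the control, and TEAD4 (16.5 to 26.2 TPM), TEAD3 (10.4 to 16.5 TPM) and TEAD2 (11 to 15.8 TPM) were expressed beside TEAD1. By adjusted p alone TEAD4 was higher with RBI2 at 120 min than in the control by 0.39 (adjusted p = 0.0223). VGLL4, a TEAD cofactor that competes with YAP, differed between the compounds at 10 min by 1.37, without a test, with changes of 0.57 (adjusted p = 0.121) for RBI2 and -0.79 for CX-5461. Of 16 genes of SRF and its cytoskeletal targets, which share several target genes with YAP, 15 were tested and none passed the rule in any comparison, where 0 to 1.82% of all tested genes did, with a median of 0.13 at CX-5461 10 min. By adjusted p alone, 5 of the 15 were higher and 0 lower with RBI2 at 120 min than in the control, beside 18% of all tested genes, among them FLNA, which crosslinks actin (0.94, adjusted p = 0.00551), and SRF (0.38, adjusted p = 0.00811). The direction of FLNA depended on the scale, since its mean level was 455 TPM in the control and 338 TPM at RBI2 120 min, while SRF was at 18.7 and 31.7 TPM.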

How the data were processed

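The 14 libraries of polyadenylated RNA were prepared with a stranded kit. The authors aligned reads to the ribosomal DNA repeat, removed those that aligned and assigned the rest to GRCh38 transcripts with Salmon 1.3.0 (per the labels). The deposited values used are estimated counts, TPM (length-corrected shares of all transcripts, by the authors) and the effective length of each transcript, a value of its own kind in the deposited files. Of 228754 transcripts 225662 matched GENCODE 44 and were summed to 60876 genes, which left out 1.03 to 1.13% of reads. Estimated counts were rounded and scaled with TMM. Genes that passed filterByExpr (minimum count 10) were fitted with edgeR 4.0.16 (quasi-likelihood, R 4.3.3) on all 14 libraries and 7 groups. The limit of 1 on the absolute log2 fold change is the study's. DESeq2 1.42.0, other choices of scaling, filter, transcripts summed, length, GC content, block and libraries, and leaving out each library in turn were alternatives. Intervals are 95%. CPM use TMM-scaled library sizes, and correlations used a prior count of 2.

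Members and lists were chosen with earlier results of these data known. Named beside the 9 members were list genes past the threshold in a comparison with the control or between the compounds, and the 5 genes most correlated with CCN1, of which 1 is not reported here. Comparisons between time labels of 1 compound were added after the data were seen. Other genes of the lists, given by their levels or changes, were named after their values were seen.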

Additional observations from a re-analysis of the deposited data

Results flagged for a closer look

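Several members passed edgeR's adjusted p, without a limit on the fold, between time labels of one compound or between the compounds. The comparisons of time labels were added after the levels of these genes had been seen, so they restate that pattern and are no independent test of it. For RBI2, AMOTL2 was higher at 10 than at 30 min by 0.46 on the log2 scale (adjusted p = 0.0498). Between 10 and 120 min of RBI2, CCN2 was higher at 10 min by 0.25 (adjusted p = 0.0489), ANKRD1 by 0.36 (0.0181), AMOTL2 by 0.32 (0.0395) and LATS2 by 0.54 (0.045). Over 24 settings the adjusted p stayed under 0.05 in 9 for AMOTL2 at 10 against 30 min and, at 10 against 120 min, in 7 for CCN2, 17 for ANKRD1, 10 for AMOTL2 and 12 for LATS2. Between the compounds at 120 min, CCN1 was higher with RBI2 than with CX-5461 by 0.54 (adjusted p = 0.00352), and YAP1 differed by -0.48 (0.0283). Groups of 2 libraries are too small to test a single library against its own group by the range of that group.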

How the results depend on the processing

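The limit on the fold change decided the counts of members. Without it, and by adjusted p alone, 1 member passed with RBI2 at 10 min (0.201% of all tested genes), 1 with RBI2 at 120 min (18%), 1 with CX-5461 at 120 min (0.0778%), 2 between the compounds at 120 min (16.1%), 1 at RBI2 10 against 30 min (0.188%) and 4 at RBI2 10 against 120 min (6.44%). In the libraries that chose the members, 4 members were under 0.05 with CX-5461 at 10 min (4.77% of all tested genes) and 4 between the compounds at 10 min (3.06% of all), and nothing is read from these counts. With the limit, the counts had the same value in every alternative run, each left-out library included, and no result changed sign among those called. Over 24 settings the adjusted p stayed under 0.05 in 23 for CCN1 between the compounds at 120 min, 19 for AMOTL2 at RBI2 10 min, 18 for YAP1 between the compounds at 120 min, 17 for AMOTL2 at RBI2 120 min and 7 for CCN1 at CX-5461 120 min. The control replicates carry the same numbers as the treated ones, but same-numbered libraries did not deviate together (correlations of -0.18 to 0.18 over 21 pairs of groups, 3 of them over 0.1), so a shared number is no pairing. With a replicate block the counts of members past the rule were 0 in each tested comparison, and 5 calls by adjusted p were lost, among them CCN1 at CX-5461 120 min (0.0902) and AMOTL2 at RBI2 10 against 30 min (0.0859). With no filter on low counts TEAD1 and AJUBA were under 0.05 against the control with RBI2 at each label. TEAD1 was also under 0.05 against the control with CX-5461 at 30 min (adjusted p = 2.0e-04), as was CCN1 with RBI2 at 30 min (0.0498). The causes were not tested. Each member had at least 506 reads in every library.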
